A study of Mus musculus with 10 samples.

Results

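The mRNAs of mitochondrial ribosomal proteins were followed through ribosome profiling of mouse embryonic stem cells in which translation had been stopped at different steps. The members were all coding sequences whose listed transcript belongs to a GENCODE M21 gene with a symbol of the form Mrpl or Mrps plus a number, which gave 76 genes on 77 transcripts of the 14534 coding transcripts in the files (Mrpl48 was listed as 2 transcripts). The rule fits 78 M21 genes, and Mrpl9 and Mrpl23 were not analysed here. By role, 28 genes encode large subunit proteins with a bacterial counterpart and 21 large subunit proteins particular to mitochondria. For the small subunit, 16 genes encode proteins with a bacterial counterpart and 10 proteins particular to mitochondria. Mrps18a and Mrps18b, though related to a bacterial protein, were placed with those particular to mitochondria. Mrps36 carries the family name but its product is known as a component of the oxoglutarate dehydrogenase complex, and it stayed out of the role groups but was counted among the members.

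The mitochondrial ribosome translates the few proteins encoded by mitochondrial DNA, which are subunits of the respiratory chain and ATP synthase. Its own proteins are all encoded in the nucleus, translated by cytosolic ribosomes and then imported into mitochondria. Footprints on the Mrpl and Mrps mRNAs therefore report on cytosolic translation, and not on the ribosomes these proteins build.

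All libraries came from CGR8, a feeder-free embryonic stem cell line of mouse strain 129, so the results hold for 1 line. The control cells received vehicle, and all other treatments carried the same volume of DMSO. Cells were treated with 1 µM DMDA-PatA (desmethyl, desamino-pateamine A) for 10 min, 2 µg/ml harringtonine for 10 min or 0.2 mg/ml puromycin for 20 min, with 2 ribosome profiling libraries each, and 2 transcriptome libraries of total RNA were made from untreated cells. DMDA-PatA acts on the RNA helicase eIF4A, which works on 5′ UTRs before the start codon is reached, harringtonine halts ribosomes in the first steps of elongation at start codons, and puromycin releases unfinished chains from elongating ribosomes. The study's methods describe a lysate from which nuclei and most mitochondria had been spun out, cycloheximide added only after cooling, and 2 biological replicates.

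Coding sequence reads per library numbered from 9104220 to 10614247 in control, 618334 to 748665 with DMDA-PatA, 1672087 to 1944784 with harringtonine, 872713 to 1547460 with puromycin, and 16649611 to 38046741 in the transcriptome. The members held 48143 and 58891 of the control reads but only 5440 and 7288 of the DMDA-PatA reads, so single members were measured less precisely with drug. All 10 embryonic stem cell markers were present in the transcriptome, with a median of 150 and 137 RPKM, here reads per kilobase relative to all coding sequence reads of the library (levels below are on this scale). Of the markers of other cells, 11 of 12 were listed, with a median of 9.52 and 10.4, a range over the libraries of 0.0956 to 1270, and Col1a1, Col1a2 and T at 1183 and 1270, 272 and 273, and 70.9 and 80.4. Whether other cells contributed to the members' values was not tested.

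The start codons of the members at both ends of the DMDA-PatA response are shown because DMDA-PatA acts before the start codon is read. Each run holds 12 bases before the start codon, the start codon in capitals and 15 bases after it, from GENCODE M21 transcripts on GRCm38. The first 4 are members that fell least, and the last 5 are those that fell most. Mrpl32, also among the 5 that fell least, is not shown because its listed coding sequence did not match the M21 transcript.
Mrps18a: gtgcgttccaagATGgcggccctcagggct
Mrps18b: gtgtgcgtcaagATGgctgcccccttgcgg
Mrps18c: gggcggagaaccATGgccgctctggttgct
Mrpl34: ccgccgctggatATGgctttcctagcccgg
Mrpl55: taagaaaaaacaATGcctttggccattctg
Mrpl3: ccggccacttccATGccgggttggaggctg
Mrps17: tacagacacataATGtcaatagtccgttca
Mrpl24: ttgaatctagctATGcggctctcagccctg
Mrpl42: ttgctaaggatcATGgctgcggcagtaaaa

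These start codons lie at chr17:46111018-46111020 on the plus strand for Mrps18a, chr17:35916361-35916363 on the minus strand for Mrps18b, chr5:100798770-100798772 on the plus strand for Mrps18c and chr8:71465003-71465005 on the plus strand for Mrpl34, each in the first exon of the listed transcript. Those of the members that fell most lie at chr11:59204233-59204235 on the plus strand for Mrpl55, chr9:105053421-105053423 on the plus strand for Mrpl3, chr5:129716744-129716746 on the plus strand for Mrps17, chr3:87921866-87921868 on the plus strand for Mrpl24 and chr10:95500447-95500449 on the minus strand for Mrpl42. For Mrpl55, Mrps17, Mrpl24 and Mrpl42 the start codon is in exon 2, so that the 5′ UTR crosses a splice junction. The letters ANNATGG or GNNATGG, a purine 3 bases before the start codon and a G directly after it, are the core of the sequence that favours initiation in mammals. They were found in 49 of the 76 member transcripts that could be placed (64.5%), beside 44.7% of all 13758 coding transcripts with a placed context, 53.9% of cytosolic ribosomal protein transcripts and 50.7% of nuclear-encoded respiratory chain transcripts. All 4 of the least lowered members shown carry these letters, as does Mrpl42, whereas Mrpl55, Mrpl3, Mrps17 and Mrpl24 do not.

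The member mRNAs are short. Their median coding sequence was 561 nt (195 to 1326 nt) against 1335 nt for all coding transcripts, and their median 5′ UTR was 77 nt (15 to 1123 nt) against 164 nt. The listed 5′ UTR was under 100 nt in 46 members (59.7%) and in 30.4% of all coding transcripts. An ATG upstream of the start codon was present in 25 of 72 member 5′ UTRs with sequence (34.7%), beside 50.1% of all 12646.

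Without drug the members were abundant and heavily occupied by ribosomes. Their median level in the transcriptome was 56.8 and 57.6 in the 2 libraries, beside 15.8 and 15.9 for all coding transcripts, and their median footprint level in control was 108.5 and 100.6, beside 12.4 and 12.1. The members took 0.301% and 0.303% of transcriptome coding reads and 0.529% and 0.555% of control footprints. Mrpl52, a large subunit protein particular to mitochondria, ranked first on both scales, with transcriptome levels of 185 and 189 and control footprint levels of 316 and 384. Mrpl12, which forms the flexible stalk of the large subunit and is present in several copies per ribosome, ranked 28 in the transcriptome and 21 in control footprints. At the low end, Mrps36 had no read on its listed coding sequence in any library and the second Mrpl48 transcript had no control footprint, which leaves 75 transcripts for the tests.

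Translation efficiency, the ratio of control footprints to transcriptome reads with each library scaled to its coding sequence total, was above the average transcript for nearly all members. By the quasi-likelihood test of edgeR, with p-values adjusted by Benjamini-Hochberg over all 13717 coding sequences tested, 69 of 75 members were higher (29.9% of all coding sequences) and 1 was lower (41.2% of all). Their median log2 efficiency was 0.97, and that of all coding sequences was −0.19. The count was 27 of 28 among large subunit proteins with a bacterial counterpart (median 1.02), 18 of 21 among those particular to mitochondria (0.89), 14 of 16 among small subunit proteins with a bacterial counterpart (0.91) and 10 of 10 among small subunit proteins particular to mitochondria (1.02). Coding sequence length moved with efficiency across all transcripts, and within each length class the member median was the higher one. At 450 nt or less the medians were 1.04 for 23 members and 0.73 for other coding sequences, and above 900 nt they were 0.63 for 14 members and −0.42 for the others.

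**Figure D1:**
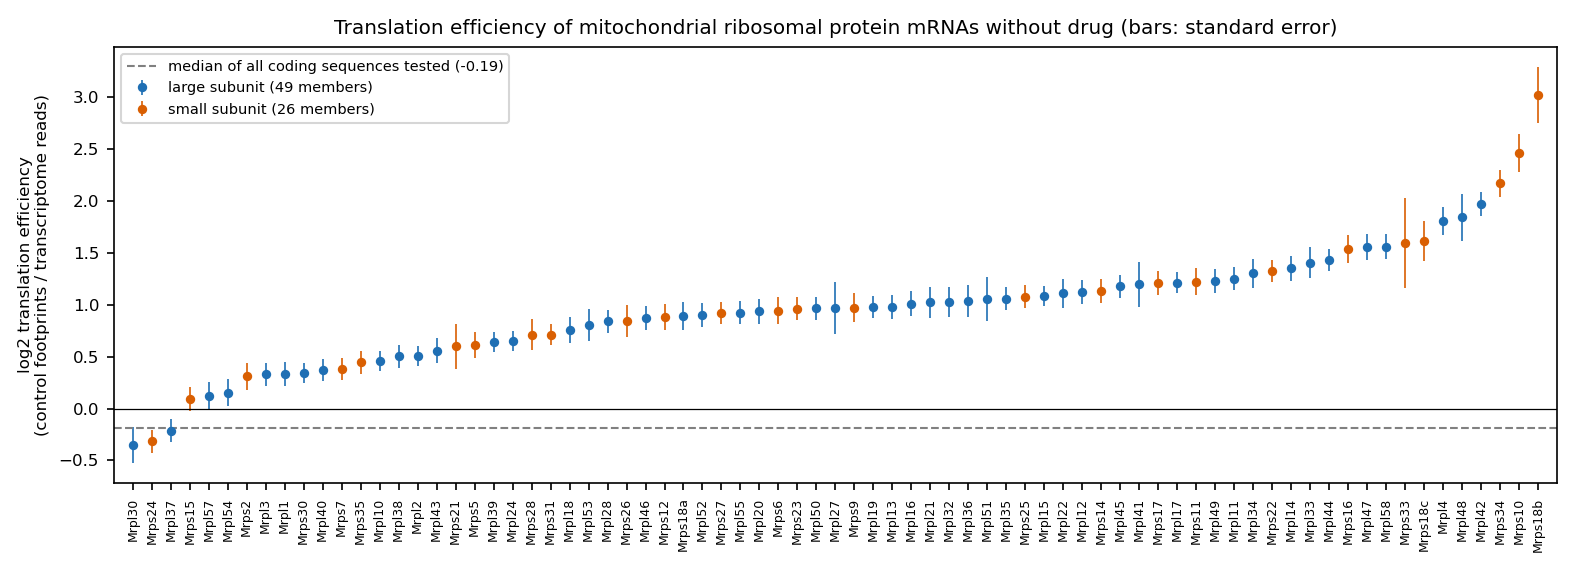
The log2 ratio of control footprints to transcriptome reads for the 75 members tested, ordered by value and named under the axis. Points are large (blue) and small (orange) subunit proteins, and bars are standard errors of the fit to 2 libraries of each kind. Nearly all points lie above 0 and above the median of all coding sequences of −0.19 (dashed line), from Mrpl30 at −0.35 to Mrps18b at 3.02.

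The extremes were members of both subunits. Mrps18b, one of a trio of proteins related to a single bacterial protein, had 244 and 406 normalized footprints in control and 136 and 78.5 normalized reads in the transcriptome, a log2 efficiency of 3.02 ± 0.27 (SE, n = 2 and 2; edgeR adjusted p = 1.55e-07). Its linear efficiency was 4.30 in replicate 1 and 13.3 in replicate 2, and 85.6% of its coding sequence has another near-identical copy in the genome, so its value is uncertain. Next in order were Mrps10 at 2.46 ± 0.18 (edgeR adjusted p = 2.34e-08), whose coding sequence is also copied elsewhere over 95.2%, Mrps34 at 2.17 ± 0.13 (edgeR adjusted p = 2.23e-09) and Mrpl42 at 1.97 ± 0.12 (edgeR adjusted p = 2.09e-09), likewise copied over 97.9%. Mrps34, a small subunit protein particular to mitochondria, was the clearest case, with 963 and 1059 normalized footprints over 563 and 553 normalized transcriptome reads. Mrps24 was the single member called lower, with 584 and 559 normalized footprints over 1775 and 1744 transcriptome reads, at −0.31 ± 0.11 (edgeR adjusted p = 0.0206). That call was lost without control replicate 1 or without either transcriptome library, when 0 members were lower, and with TMM scaling, which kept 69 higher. Mrpl30 (−0.35), Mrpl37 (−0.21), Mrps15 (0.09), Mrpl57 (0.12) and Mrpl54 (0.15) did not pass the test.

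Other genes of mitochondrial translation were less uniform. Of 5 mitochondrial ribosomal proteins that carry other names, 4 had a higher efficiency (median 0.90). Among mitochondrial translation factors 4 of 11 were higher and 2 lower (median 0.18), and among assembly factors of the mitochondrial ribosome 10 of 22 were higher and 5 lower (median 0.23). Respiratory chain subunits, whose partners the mitochondrial ribosome makes, were higher in 59 of 73 (median 0.93), and cytosolic ribosomal proteins were higher in 33 of 47 and lower in 5 (median 1.03).

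On the spike-in scale, where an added RNA fixes the level of each library, DMDA-PatA lowered footprints on the coding sequence of every member tested, whereas TMM scaling, which centres the average transcript, gave 9 lower and 36 higher. The shares of all coding sequences called with TMM scaling were not counted, so its member counts stand without a comparison. By the spike-in, 75 of 75 members were lower (99.8% of all 12298 coding sequences tested were lower and 0.00813% higher; edgeR quasi-likelihood test, Benjamini-Hochberg adjusted) with a median log2 change of −3.67, beside −4.33 for all coding sequences. The study's methods add the spike-in per mass of RNA, so the scale is not per cell, and in these bulk lysates fewer cells of a type and less RNA per cell cannot be told apart. Means published with the study use the factors of DMDA-PatA and harringtonine the other way round from the deposited values, which were used here, and which assignment is right was not tested. Over the 67 members with at least 100 normalized footprints and transcriptome reads, the median fold inhibition was 12.1 ± 4.59 (SD of 2 replicate pairs, 16.0 and 9.55), and over all 8461 such coding sequences it was 22.4 ± 8.20. With the factors exchanged it was 10.4 for the members and 19.3 over all such coding sequences. For harringtonine the median over all was 8.70 with the deposited factors and 10.6 with the exchanged ones. The medians in the paper's text, 22 for DMDA-PatA and 8.7 for harringtonine, are those obtained with the deposited factors. With these factors and DMDA-PatA, respiratory chain subunits had a median of 13.3 (68 of 76 listed transcripts) and cytosolic ribosomal proteins of 20.4. The latter rests on only 32 of 78 listed transcripts that reached the minimum. The member median by role was −3.79 for large subunit proteins with a bacterial counterpart, −3.88 for those particular to mitochondria, −3.79 for small subunit proteins with a bacterial counterpart and −3.43 for those particular to mitochondria.

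The members that fell most lost nearly all coding sequence footprints. Mrpl55, a large subunit protein with a bacterial counterpart, had 803 and 731 normalized footprints in control and 8.21 and 8.93 with DMDA-PatA, a log2 change of −6.47 ± 0.57 (SE, n = 2 and 2; edgeR adjusted p = 5.23e-28). Mrpl3, which lies near the catalytic centre of the large subunit, went from 875 and 801 to 10.7 and 18.7 (−5.84 ± 0.54, edgeR adjusted p = 5.60e-26). Mrps17, an RNA-binding protein of the small subunit, went from 661 and 596 to 6.94 and 21.1 (−5.51 ± 0.53, edgeR adjusted p = 5.54e-24). The control and DMDA-PatA libraries did not overlap in any of these 3 members. Lack of overlap was not counted over all coding sequences, of which 99.8% were called lower. Mrpl24, with 1841 and 1724 in control and 34.7 and 44.6 with drug, and Mrpl42, with 911 and 828 in control and 16.4 and 23.5 with drug, followed at −5.49 and −5.45.

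The Mrps18 trio stood at the other end. Mrps18a sits in the large subunit, and Mrps18b and Mrps18c in the small one. Mrps18c had 106 and 114 normalized footprints in control and 21.5 and 37.3 with DMDA-PatA, a log2 change of −1.92 ± 0.46 (SE, n = 2 and 2; edgeR adjusted p = 2.71e-05), the smallest among well-measured members. Mrps18a had 283 and 279 in control and 49.2 and 66.6 with drug (−2.28 ± 0.45, edgeR adjusted p = 4.32e-07). Mrps18b had 244 and 406 in control and 48.0 and 68.2 with drug (−2.49 ± 0.45, edgeR adjusted p = 4.01e-08). The groups did not overlap for any of the trio, and how often this holds over all coding sequences was not counted (99.8% were called lower). The Mrps18c transcript overlaps Gm43511 on the same strand over 174 nt, so its reads are uncertain. Mrpl34, a short protein of the large subunit, had 581 and 547 in control and 78.3 and 133 with drug (−2.42), and Mrpl32, a zinc-binding large subunit protein, had 336 and 415 in control and 48.6 and 80.4 with drug (−2.55). Mrpl12 lay at the middle of the family, with 971 and 841 in control and 54.9 and 93.3 with drug, a log2 change of −3.62 ± 0.48 (edgeR adjusted p = 5.54e-14). The listed models of the trio are shorter than the longest M21 coding model of the same gene, at 76% of it for Mrps18a, 63.8% for Mrps18b and 61.5% for Mrps18c. Across all members, 8 transcripts had such a shorter model and 69 did not, and the medians of those tested were −3.23 over 7 and −3.71 over 68. The part of the listed models in the trio's values was not tested.

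**Figure D2:**
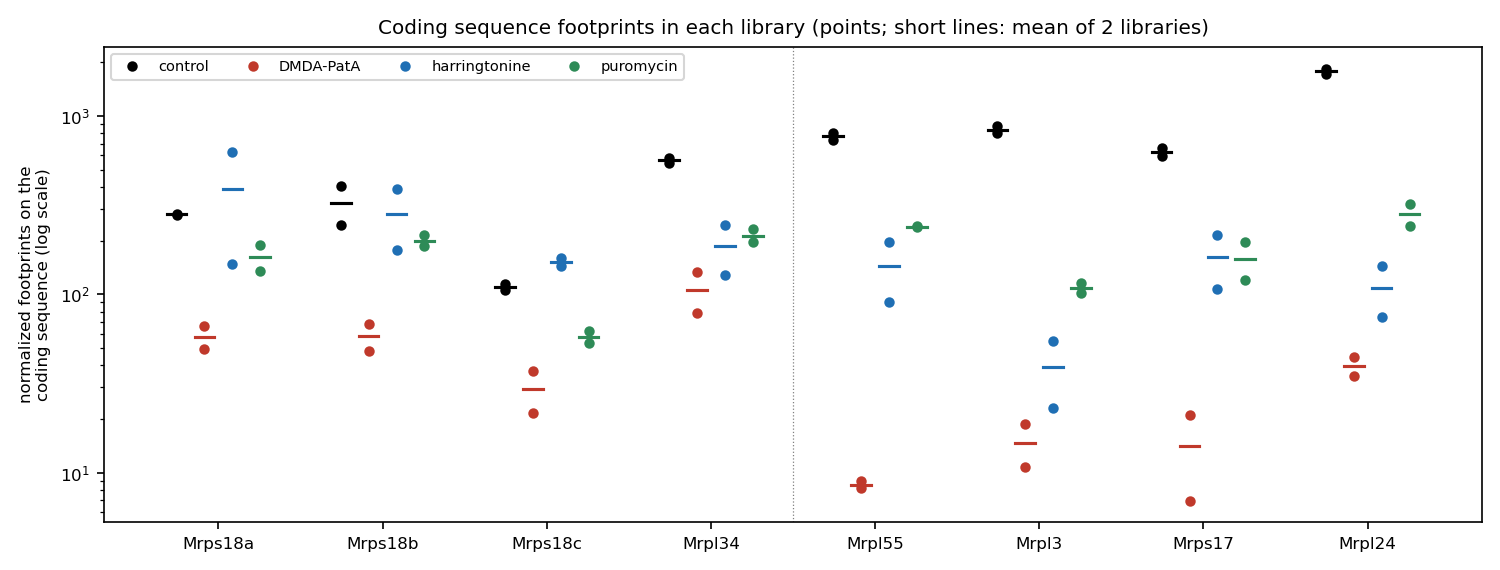
Normalized coding sequence footprints (log scale) in each library for 4 of the members that fell least with DMDA-PatA (left of the dotted line) and 4 of those that fell most (right); points are libraries and short lines the mean of 2. On this spike-in scale DMDA-PatA (red) is below control (black) everywhere, by the widest margin in Mrpl55, and harringtonine (blue) reaches the control level in Mrps18a, Mrps18b and Mrps18c but not in the others.

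Scaled to the total of coding sequence footprints in each library, so that a change is relative to the average coding sequence, the members as a family lost less than the rest with DMDA-PatA. On this relative scale 38 of 75 members were higher (21.2% of all coding sequences) and 7 lower (20.0% of all), with a median log2 difference of 0.61 beside 0.01 for all coding sequences (edgeR quasi-likelihood test). They held 0.880% and 0.973% of coding footprints with DMDA-PatA, against 0.529% and 0.555% in control. The 7 lower members were Mrpl55 (−2.10), Mrpl3 (−1.49), Mrps17 (−1.20), Mrpl24 (−1.12), Mrpl42 (−1.08), Mrps6 (−0.89) and Mrpl37 (−0.74). The highest were Mrps18c (2.42), Mrps18a (2.08), Mrpl34 (1.92), Mrps18b (1.85) and Mrpl32 (1.78), and Mrpl12 was at 0.73. Mrps17 lost its call without DMDA-PatA replicate 1, when the count of lower members was 4, and Mrpl42 and Mrpl12 lost theirs without DMDA-PatA replicate 2. All 4 role groups had more higher than lower members, with 14 and 3 of 28, 10 and 2 of 21, 7 and 2 of 16, and 7 and 0 of 10 in the order given above. Respiratory chain subunits were higher in 36 and lower in 8 of 73 (median 0.70) and assembly factors higher in 12 and lower in 0 of 21 (median 0.76). Translation factors (3 higher and 4 lower of 11, median −0.30), mitochondrial ribosomal proteins of other names (2 and 2 of 5, median 0.26) and cytosolic ribosomal proteins (8 and 11 of 44, median 0.07) were divided.

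The 5′ UTR length of a member moved with its change. On the spike-in scale, in the 26 members with a listed 5′ UTR under 50 nt the median log2 change with DMDA-PatA was −3.43, and it was −3.62 in 19 members at 50 to 99 nt, −3.91 in 15 at 100 nt or more but under 200 nt and −3.97 in 15 at 200 nt or more. Other coding sequences of the same classes had medians of −3.61, −3.90, −4.37 and −4.76. The member median was thus the smaller decrease in each class. By coding sequence length the order was not the same throughout, since at 450 nt or less the members had a median of −3.93 and the others −3.60. Members with the letters ANNATGG or GNNATGG at the start codon had a median of −3.58 (48 tested) and those without −4.03 (26 tested), beside −4.27 and −4.40 for other coding sequences. On the relative scale 27 of 48 members with these letters were higher and 2 lower, and 10 of 26 without them were higher and 5 lower. Among other coding sequences with the letters 1227 of 5326 were higher and 1008 lower. Without the letters 1198 of 6300 of the others were higher and 1336 lower. The member values are descriptions of members that also differ in length.

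**Figure D3:**
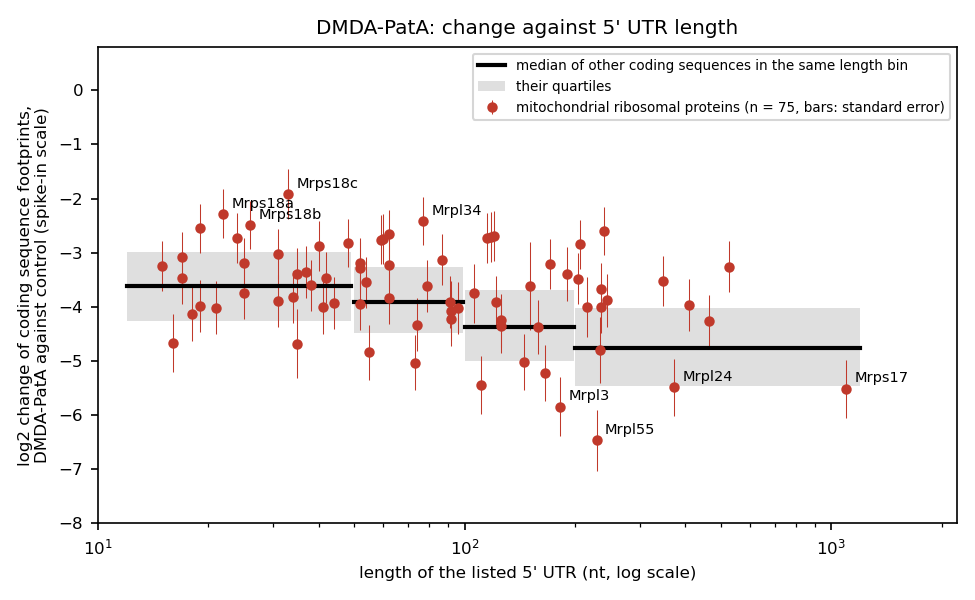
The log2 change of coding sequence footprints with DMDA-PatA on the spike-in scale against the length of the listed 5′ UTR (log scale), with points for the 75 members and standard errors as bars; black lines and grey boxes are the median and quartiles of other coding sequences in 4 length classes. The medians fall from −3.61 to −4.76, and Mrpl55, Mrpl3, Mrps17 and Mrpl24 lie below the boxes or at their lower edge while Mrps18a, Mrps18b, Mrps18c and Mrpl34 lie above them.

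Harringtonine and puromycin lowered most members, less strongly. Harringtonine lowered 68 of 75 (93.9% of all coding sequences; median −2.55 on the spike-in scale beside −2.99 for all) and puromycin 71 of 75 (91.1% of all; median −2.30 beside −2.50) by edgeR's quasi-likelihood test, and no member was higher on this scale, whereas TMM scaling gave 22 lower and 34 higher with harringtonine and 14 and 26 with puromycin. Shares over all coding sequences were not counted with TMM scaling. The median fold inhibition was 5.78 ± 2.01 with harringtonine (SD of 2 replicate pairs; 8.70 over all coding sequences; 6.98 with the factors exchanged) and 4.93 ± 0.671 with puromycin (6.32 over all). The 3 comparisons share their control libraries. Doses differed between the drugs, and puromycin acted for longer. Within classes of coding sequence length the members did not keep the smaller decrease, except with harringtonine at 451 to 600 nt. There the medians were −1.86 for members and −1.95 for other coding sequences. At 601 to 900 nt the member median was −3.25 with harringtonine and −2.66 with puromycin, against −2.46 and −1.96 for other coding sequences, and at 450 nt or less it was −2.08 and −1.71 against −1.38 and −1.03.

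**Figure D4:**
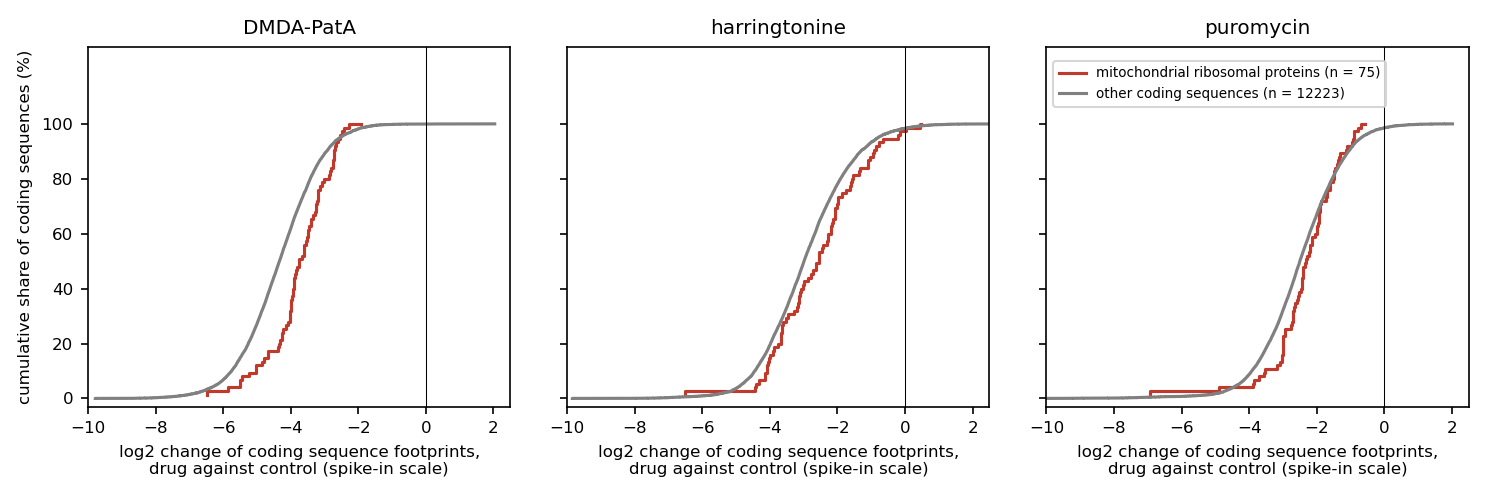
Cumulative share of the 75 members (red) and of the 12223 other coding sequences tested (grey) against the log2 change of coding sequence footprints on the spike-in scale for each drug. The red curve lies to the right of the grey one over most of its range with DMDA-PatA (member median −3.67), and the curves are closer with harringtonine (−2.55) and puromycin (−2.30).

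With harringtonine the largest decreases among members with at least 100 mean control footprints were those of Mrpl3 (875 and 801 in control, 54.8 and 23.1 with drug; −4.45 ± 0.50, SE, n = 2 and 2; edgeR adjusted p = 5.23e-18) and Mrps15 (374 and 334, against 17.2 and 18.2; −4.31 ± 0.50, edgeR adjusted p = 4.38e-17). Mrpl21, Mrpl16 and Mrpl38 followed at −4.14, −4.14 and −4.10. The 7 members not called were Mrps26 (−0.76), Mrpl50 (−0.64), Mrps18b (−0.21), Mrpl30 (−0.14), Mrpl20 (0.03), Mrps18a (0.46) and Mrps18c (0.46). Mrps18c had 160 and 144 normalized footprints with harringtonine, both above the 106 and 114 of control, and its difference of 0.46 ± 0.42 did not pass the test (edgeR adjusted p = 0.283). Mrps18a had 625 and 148, on either side of its control values of 283 and 279, and Mrps18b had 388 and 176, which overlapped its control values. Without harringtonine replicate 1 the value of Mrps18a was −0.92 (edgeR adjusted p = 0.0124), and without harringtonine replicate 2 it passed the test as higher, so that 1 library decides its direction. The difference of Mrps18b was −0.21, and 0.21 without control replicate 2 and 0.25 without harringtonine replicate 2, and Mrps18b and Mrpl50 passed the test as lower without harringtonine replicate 1. Mrpl20, an early-binding protein of large subunit assembly, kept 766 and 740 normalized footprints with harringtonine against 709 and 770 in control, and the groups overlapped.

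With puromycin the largest decreases among well-measured members were those of Mrps30, found in the large subunit in spite of its name (1672 and 1549 in control, 114 and 103 with drug; −3.89 ± 0.49, SE, n = 2 and 2; edgeR adjusted p = 4.09e-14), Mrps10 (197 and 171, against 14.5 and 11.2; −3.86) and Mrpl45, which links the ribosome to the inner membrane (1469 and 1228, against 99.3 and 107; −3.71). No groups overlapped among these, and how often this holds over all coding sequences was not counted (91.1% were called lower). Mrps33 had no footprint in either puromycin library and 15.3 and 13.6 in control, which makes it at least 2.91-fold lower (against a floor of 3 reads per library). The 4 members not called were Mrps21 (−0.94), Mrps18a (−0.79), Mrps18b (−0.70) and Mrpl50 (−0.57). Mrpl50, a large subunit protein particular to mitochondria, had 354 and 361 normalized footprints with puromycin and 565 and 497 in control, without overlap, and the difference did not pass the test (edgeR adjusted p = 0.193). Mrps18c (−0.94, edgeR adjusted p = 0.0428), Mrpl20 (−0.90, adjusted p = 0.0443) and Mrpl52 (−0.90, adjusted p = 0.0457) passed it narrowly, and each of these 3 calls was lost when any of the 2 control or 2 puromycin libraries was left out.

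On the relative scale 33 members were higher (22.7% of all) and 22 lower (34.7% of all) with harringtonine, with a median of 0.14 beside −0.28 for all coding sequences, and 25 were higher (23.5%) and 16 lower (25.6%) with puromycin, with a median of 0.15 beside −0.06 (edgeR quasi-likelihood test). The highest with harringtonine were Mrps18c (3.21), Mrps18a (3.0), Mrpl20 (2.80), Mrpl30 (2.63) and Mrps18b (2.41). Mrpl27, a counterpart of a bacterial protein at the catalytic centre, was the lowest, with 43.6 and 54.4 normalized footprints in control and 1.01 and 0 with harringtonine, but its whole coding sequence has another genomic copy. With puromycin Mrpl50 (1.88), Mrps18b (1.72), Mrps18a (1.66), Mrpl52 (1.54) and Mrpl20 (1.54) were the highest, and Mrps30 (−1.46), Mrps10 (−1.44) and Mrpl45 (−1.26) were among the lowest. The puromycin count of lower members was 7 without control replicate 1, 6 without control replicate 2, 10 without puromycin replicate 1 and 5 without puromycin replicate 2.

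On the spike-in scale DMDA-PatA was below harringtonine for 39 members (53.0% of all coding sequences) and above it for 1 (0.431% of all), and below puromycin for 50 (67.9% of all) and above it for 0 (0.382% of all) by edgeR's quasi-likelihood test, whereas TMM scaling gave 18 lower and 27 higher against harringtonine and 8 and 24 against puromycin. Without DMDA-PatA replicate 1 the lower counts were 24 and 31. Mrpl55 showed the largest difference in both, at −4.05 ± 0.54 against harringtonine (197 and 91.0 normalized footprints; edgeR adjusted p = 5.25e-12) and −4.79 ± 0.54 against puromycin (238 and 240.0; edgeR adjusted p = 2.89e-16). Mrpl44, an RNA-binding protein of the large subunit, was the 1 member with more footprints under DMDA-PatA (147 and 262) than under harringtonine (81.2 in both libraries), by 1.33 ± 0.45 (edgeR adjusted p = 0.00836), a call lost without DMDA-PatA replicate 2, and with the factors exchanged 5 members were higher. Harringtonine was below puromycin for 8 members (10.1% of all) and above it for 4 (1.10% of all), which included Mrps21 (−2.09), Mrpl18 (−1.71) and Mrpl3 (−1.50) on the lower side and Mrps26 (1.54), Mrps18c (1.40) and Mrpl30 (1.39) on the higher side. With TMM scaling the counts were 15 lower and 21 higher, with the factors of harringtonine and DMDA-PatA exchanged 31 were lower, and DESeq2 called 2 higher. For these alternatives the shares over all coding sequences were not counted. The lower count was 2 without control replicate 1, control replicate 2 or harringtonine replicate 2, 24 without harringtonine replicate 1, and 1 and 0 without puromycin replicates 1 and 2, and the higher count was 0 without any one of the control or puromycin libraries.

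Protected fragments before the main start codon, here called 5′ UTR footprints, were few on most members, and whether all came from ribosomes was not tested. In control the 5′ UTR share of 5′ UTR and coding footprints was 3.34% and 3.45% over the members and 4.01% and 4.27% over all coding transcripts. Of 73 members with at least 100 such reads, 48 had a share under 1%, 13 over 10% and 1 over 50%, and 5 members held 58.1% of all member 5′ UTR footprints. Members with no upstream ATG had a median share of 0% (44 members, median 5′ UTR 50 nt), and 3 of them were over 10%. Those with an upstream ATG had a median share of 6.01% (24 members), and 10 of them were over 10%. The latter also had longer 5′ UTRs, with a median of 168 nt.

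Mrpl18 had the highest share. Its product is a large subunit protein that also takes part in the import of ribosomal RNA into mitochondria, and a cytosolic form that starts downstream is known from heat shock. It had 384 and 476 normalized footprints on the 5′ UTR in control and 340 and 318 on the coding sequence, a 5′ UTR share of 53.1% and 59.9%, and 98 and 79.1 normalized 5′ UTR reads beside 459 and 498 coding sequence reads in the transcriptome. With harringtonine the coding sequence kept 34.5 and 19.6 while the 5′ UTR held 658 and 265, a share of 95.0% and 93.1%. The shares were 78.5% and 75.9% with DMDA-PatA and 76.7% and 78.3% with puromycin. An upstream ATG that lies 84 nt before the main start codon in the same frame (chr17:12916080-12916082, minus strand) and reaches a stop codon after 11 codons is shown beside the main start codon (chr17:12915996-12915998) and an upstream ATG of Mrpl55 (chr11:59202531-59202533, plus strand, 190 nt before its start codon, out of frame, 8 codons).
Mrpl18 main start: gtcccgtcagccATGgcgcttcggccgcgg
Mrpl18 upstream ATG: cccacagttaacATGgctgcgactagttgt
Mrpl55 upstream ATG: gacatctgggttATGgtgaaggattatcat

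Both Mrpl18 sites and the upstream ATG of Mrpl55 carry the letters ANNATGG or GNNATGG. The Mrpl18 gene overlaps Tcp1 on the other strand, and whether counting used strand is not given in the sources used here. The files give footprints per region and not per base, so their position relative to these codons was not measured here. Mrpl30 (59.3% and 26.4% in control), Mrpl51 (51.6% and 33.9%), Mrpl41 (22.1% and 18.0%) and Mrps6 (18.4% and 18.5%) came next, of which Mrpl41 and Mrpl51 have other genomic copies over 100% of the coding sequence, and Mrpl51 also overlaps Mir3098 on the same strand over 87 nt.

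**Figure D5:**
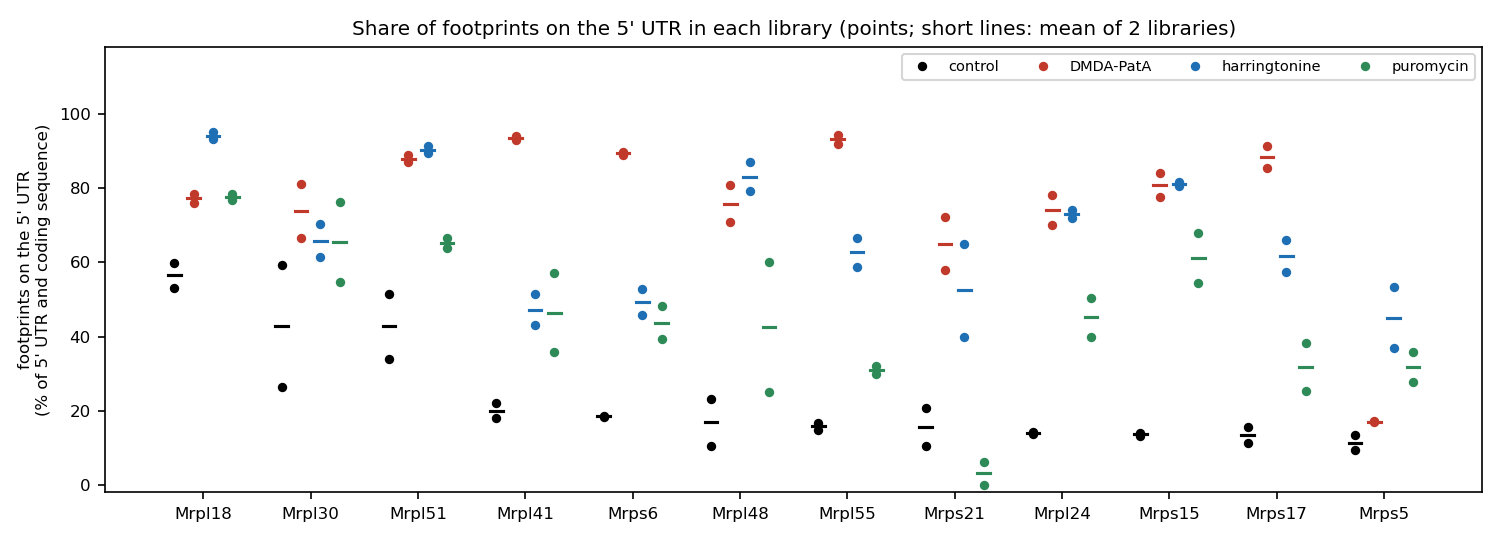
The share of 5′ UTR and coding sequence footprints that lay on the 5′ UTR (%), in each library (points; short lines are means of 2), for 12 members with high shares in control. The share is higher with DMDA-PatA and harringtonine than in control in all 12, from 53.1% and 59.9% in control to 95.0% and 93.1% with harringtonine in Mrpl18, and in Mrps21 puromycin lies below control.

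On the spike-in scale the drugs moved 5′ UTR footprints less than coding footprints. Of 34 members with enough 5′ UTR reads, 8 were lower (29.0% of all 6647 tested) and 8 higher (14.7% of all) with DMDA-PatA, with a median log2 change of −0.07 beside −0.48 for all (edgeR quasi-likelihood test), and TMM scaling turned this to 0 lower and 33 higher. The TMM factors came from coding sequence reads, so the TMM counts set the 5′ UTR against coding sequences, much as the ratio below does. On the spike-in scale the lower ones were Mrpl20, Mrpl30, Mrps5, Mrpl18, Mrps12, Mrps7, Mrpl24 and Mrpl11, from −3.06 to −1.14. Mrpl18 went from 384 and 476 to 87.8 and 105 (−2.16 ± 0.46, SE, n = 2 and 2; edgeR adjusted p = 2.56e-05). Among the higher ones, Mrpl15, a large subunit protein, had no 5′ UTR footprint in control and 20.2 and 48.7 with DMDA-PatA, at least 11-fold higher against a floor of 3 reads per library, and Mrps18b had none in control and 9.47 and 16.2 with drug, at least 4.11-fold higher. The others called higher were Mrpl57 (3.72), Mrpl43 (3.16), Mrpl38 (3.04), Mrpl40 (2.76), Mrps31 (1.40) and Mrpl34 (1.40). Of these 8, all but Mrps31 and Mrpl34 had fewer than 10 reads in both control libraries, entered the test through the drug libraries and so had to differ, which leaves the count and the median as descriptions. Among the 20 members with at least 10 reads in both control libraries, 8 were lower and 2 higher. The shares over all 5′ UTRs with this control minimum were not counted. These counts therefore cannot be set against the 29.0% and 14.7% above. The counts rest on single libraries, with 5 lower without DMDA-PatA replicate 1, 4 without control replicate 1 and 5 without control replicate 2, and 5, 2 and 4 higher without DMDA-PatA replicate 1, DMDA-PatA replicate 2 and control replicate 2.

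With harringtonine 14 of the 34 members were higher on the 5′ UTR (35.1% of all) and 0 lower (5.21% of all), with a median of 0.95 beside 0.88. Without Mrps36 the count was 13 of 33. Among the 20 members with at least 10 reads in both control libraries 6 were higher, a share not counted over all 5′ UTRs. The other 8 calls are of members that needed drug libraries to enter the test. The higher count was 8 without control replicate 1, 6 without control replicate 2 and 4 without harringtonine replicate 1, and DESeq2 called 9 and TMM scaling gave 33. The TMM factors were again those of coding sequence reads, for harringtonine and puromycin alike. Mrpl2 (3.20 ± 0.53, edgeR adjusted p = 6.05e-08), with 23 and 15 reads in control, was among those that reached the control minimum. Mrps16 (3.71) had 2 and 3 reads in control and 38 and 45 with harringtonine. It entered the test only through the harringtonine libraries and so had to differ. With puromycin edgeR called 0 members in either direction (0.557% and 0.406% of all were higher and lower), although 4 had an unadjusted p under 0.05, and DESeq2 also called 0, limma called 1 lower and TMM scaling gave 28 higher.

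The ratio of 5′ UTR to coding sequence footprints, tested within libraries and thus free of the scaling between them, rose in most members that could be tested. With DMDA-PatA 31 of 33 rose (93.6% of all 6497), with harringtonine 31 (95.4%) and with puromycin 25 (78.3%), and 0 members fell (0.139%, 0.123% and 0.0616% of all; edgeR quasi-likelihood test, with 26 to 31 members at an unadjusted p under 0.05 in either direction). Among the 20 members with at least 10 5′ UTR reads in both control libraries, 18, 19 and 17 rose, shares not counted over all transcripts. The other 13 members needed drug libraries to enter the test. Median log2 changes over all 33 were 4.67, 4.01 and 2.04, beside 4.36, 4.00 and 2.55 for all transcripts. In Mrpl55 the coding sequence fell to 8.21 and 8.93 with DMDA-PatA while the 5′ UTR held 94.1 and 147, against 140 and 148 in control, so that the 5′ UTR share went from 14.9% and 16.8% to 92.0% and 94.3%. Mrps17 held 72.6 and 123 on the 5′ UTR, against 121 and 75.2 in control, and Mrps6 held 105 and 184 against 140.3 and 150.5, beside coding sequence values of 6.94 and 21.1 and of 12 and 22.7. The Mrps6 gene overlaps Slc5a3 and Gm49711 on the same strand over 305 nt, so its reads are uncertain. In all, 5 member transcripts overlap another gene on the same strand and 23 on the opposite strand, and the latter include, of the members described, Mrpl12, Mrpl18, Mrpl21, Mrpl24, Mrpl27, Mrpl43, Mrpl44, Mrps7, Mrps18b, Mrps26, Mrps30 and Mrps34. The members not called were Mrpl20 (−0.28) and Mrps5 (0.71) with DMDA-PatA and Mrpl20 (−0.34) with harringtonine. With puromycin Mrps21 had the lowest ratio of those not called (−1.89). Mrps18b had no 5′ UTR footprint in control, harringtonine or puromycin libraries, so its ratio could not be estimated with harringtonine or puromycin, although it counted among the 33. Mrpl15 also had none in control. The size of the rise of Mrps18b and Mrpl15 with DMDA-PatA, and of Mrpl15 with harringtonine, could therefore not be estimated, although these were called. Mrpl20, with 15.3 and 9.97 normalized 5′ UTR footprints in control and 2.53 and 0 with DMDA-PatA, fell in both regions with DMDA-PatA.

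Reads that matched more than 1 place had been dropped by the authors, which can lower the values of members with copies elsewhere. At 95% identity over at least 30 nt, 15 members had another genomic copy of 50% or more of the coding sequence. Their median change with DMDA-PatA was −3.68 over 14 tested, against −3.67 over the other 61, and their median log2 efficiency was 1.15 against 0.94. Members with very low levels were among them, since Mrps36, Mrps33, Mrpl48, Mrpl27 and Mrpl41 each had copies over 100% of the coding sequence.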

How the data were processed

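The deposited tables hold reads per transcript region (5′ UTR, open reading frame) for 8 ribosome profiling and 2 transcriptome libraries of the CGR8 line. Per the study's methods, the authors mapped reads to mm10 with Ensembl transcripts, dropped reads that matched more than 1 place, and divided profiling reads by DESeq2 size factors from spike-in RNA, so the deposited values are a normalized read signal. The transcriptome libraries were scaled to each other. The submitters' processing notes name Picard 1.38. The values were whole multiples of 1 read in each library (all within 0.001), so reads were recovered from them.

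The planned design assumed counts, and edgeR 4.0.16 (quasi-likelihood test, R 4.3.3) was therefore run on the recovered reads with the authors' spike-in factors, or with coding sequence totals as offsets for the relative scale and for translation efficiency. limma 3.58.1 on log2(value + 1) was added after seeing the data. Each fit took the regions that reached 10 reads in 2 or more libraries, p-values were adjusted over all of them, and the threshold was 0.05. The 5′ UTR to coding sequence ratio was an interaction within libraries. Fold inhibition is the ratio of mean normalized values over transcripts with at least 100 in control and transcriptome. Alternatives were DESeq2 1.42.0, TMM scaling, other filters, exchanged size factors, a replicate block and leaving out each library. Scripts were tested on simulated data.

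All members could be named. Full statistics went to the 5 largest and 5 smallest decreases per drug among members with at least 100 mean control footprints, to up to 5 members in each direction on the relative scale and in the 5′ UTR and ratio tests, to the 5 highest and 5 lowest efficiencies, to up to 3 in each direction between drugs, and to the Mrps18 trio and Mrpl12. The members and lists were chosen with earlier results of these data known. Identifiers were matched to GENCODE M21 (GRCm38), start codons were read from its transcripts, and copies were searched with blastn 2.17.0. With 2 libraries per group, p-values measure the spread between these libraries, which the study calls biological replicates.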

Additional observations from a re-analysis of the deposited data

How the results depend on the processing

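Spike-in scaling decides the direction on the absolute scale. With TMM scaling, coding sequences of 9 members were lower and 36 higher under DMDA-PatA, 22 lower and 34 higher under harringtonine and 14 lower and 26 higher under puromycin, and the counts were 18 and 27 for DMDA-PatA against harringtonine, 8 and 24 against puromycin, and 15 and 21 for harringtonine against puromycin. On the 5′ UTR it gave 0 lower and 33 higher with DMDA-PatA, 33 higher with harringtonine and 28 higher with puromycin, and for translation efficiency 0 lower. The TMM factors for the 5′ UTR came from coding sequence reads, so these counts set the 5′ UTR against coding sequences. The TMM log2 changes of coding sequences that turned positive with DMDA-PatA were Mrps18c 2.30, Mrps18a 1.96, Mrpl34 1.80, Mrps18b 1.73, Mrpl32 1.67 and Mrpl12 0.61, with harringtonine Mrps18b 2.58, Mrpl50 2.16 and Mrpl12 0.77, and with puromycin Mrpl50 1.90, Mrps18b 1.74, Mrps18a 1.68, Mrpl52 1.56, Mrpl20 1.56, Mrps18c 1.5 and Mrpl12 0.077. On the 5′ UTR with DMDA-PatA they were Mrpl20 1.13, Mrpl30 2.12, Mrps5 2.05, Mrpl18 2.09 and Mrps12 2.42. Scaled to coding sequence totals, the median fold inhibition was 0.589, 0.890 and 0.906 for DMDA-PatA, harringtonine and puromycin. With size factors exchanged between the DMDA-PatA and harringtonine libraries, 5 members were higher for DMDA-PatA against harringtonine, 31 were lower for harringtonine against puromycin, and Mrpl20 was at −0.15 with harringtonine. The shares over all transcripts with TMM scaling or with exchanged factors were not counted, so these member counts stand without a comparison.

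DESeq2 called 2 members higher for harringtonine against puromycin, 9 lower on the relative scale with puromycin (10 with median-ratio size factors) and 9 higher on the 5′ UTR with harringtonine. A minimum of 100 reads left 12 members on the 5′ UTR, of which 5 were lower and 1 higher with DMDA-PatA and 5 higher with harringtonine. limma on log2 values, added after seeing the data, called 1 lower on the 5′ UTR with puromycin. Apart from the smaller number tested at 100 reads, the cause was not tested.

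Replicate numbers are shared but nothing states that they pair samples, and with 2 pairs per comparison the deviations of same-numbered libraries correlated from −0.0174 to 0.106. With the replicate block, harringtonine against puromycin gave 3 lower and 1 higher, and no other count moved by over 1.5 times. The block also lost 7 single calls, at edgeR adjusted p of 0.0809, 0.0763 and 0.0613 for Mrpl52, Mrpl20 and Mrps18c with puromycin, 0.0508 and 0.0655 for Mrps18c and Mrpl30 for harringtonine against puromycin, 0.0610 for Mrps33 on the relative scale with puromycin, and 0.0822 for Mrpl40 on the 5′ UTR with harringtonine.

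Leaving out 1 library gave 72 to 75 lower with DMDA-PatA, 58 to 72 lower and 0 to 1 higher with harringtonine and 62 to 74 lower with puromycin. Between drugs it gave 24 to 50 lower and 0 to 4 higher for DMDA-PatA against harringtonine, 31 to 60 lower against puromycin, and 0 to 24 lower and 0 to 5 higher for harringtonine against puromycin. On the relative scale it gave 4 to 7 lower and 31 to 40 higher with DMDA-PatA, 19 to 23 and 24 to 33 with harringtonine, and 5 to 16 and 18 to 28 with puromycin. On the 5′ UTR it gave 4 to 9 lower and 2 to 8 higher with DMDA-PatA and 4 to 14 higher with harringtonine. Translation efficiency stayed at 65 to 68 higher and 0 to 1 lower. The ratio test gave 24 to 31, 26 to 31 and 19 to 23 higher with DMDA-PatA, harringtonine and puromycin, with 0 to 1 lower for DMDA-PatA. Median fold inhibition ranged from 9.55 to 16.0, 4.69 to 7.53 and 4.49 to 5.44. Single members changed sign with harringtonine in Mrps18a (−0.92 to 1.15, lowest without harringtonine replicate 1), Mrpl20 (−0.032 to 0.088, lowest without control replicate 1) and Mrps18b (−0.89 to 0.25, with 0.21 without control replicate 2), and with puromycin in Mrpl12 on the relative scale (−0.0888 to 0.162, lowest without puromycin replicate 2) and in the Mrpl57 ratio (−0.79 to 6.49, lowest without puromycin replicate 1). Over all alternatives, 1634 single-member values kept direction and side of the threshold, 77 lost the call, 15 gained it and 28 changed sign. Drug libraries held 5440 to 14547 member footprints on coding sequences, which limits what low members can show.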
